A study of Rattus norvegicus with 72 samples.

Results

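The experiment described here is the response of the liver to partial hepatectomy in rats on the high fat diet, 24 h after the operation. It comprised the 8 arrays titled HF at 24 h, of 72 in the series, chosen by those titles, and these 8 arrays came from 4 rats. Each rat gave a control sample, the liver removed at surgery, and a remnant sample, the liver left in the same animal and taken 24 h later. Total RNA was hybridised to Affymetrix Rat Gene 1.0 ST arrays, 1 array a sample, and all values below are on the log2 scale of the batch-corrected table. The controls had been fed the same diet and had not been hepatectomised. No sham-operated animals are among the samples, so each difference is the whole change between surgery and the next day, the passing of the hours included. The sources used here do not give the strain, sex or age of the rats, what the diet contained, how long it was fed or at what hour the rats were operated.

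The labels disagree on the diet. The titles and the diet tags put these 8 arrays on the high fat diet, while their source names and descriptions call the animals carbohydrate fed, and the arrays titled CHO carry the reverse. The names used here are those of the titles and tags. Among the control livers of the animals compared here, rat 3 of this experiment included, Scd, the stearoyl-CoA desaturase that dietary sugar induces and polyunsaturated fat represses, had a mean level of 5.55 in the 9 livers titled HF and 9.42 in the 8 titled CHO, and the ranges of these livers did not overlap (4.39 to 6.29 against 8.32 to 10.87). The other animals used for comparison were, at 24 h, 3 rats titled EtOH (chronic ethanol) and 2 titled CHO, and, on the high fat diet, 2 rats at 6 h and 3 at 1 h, each with its own control and remnant. Alb, the albumin gene that marks hepatocytes, lay between 13.31 and 13.56 in all 8 arrays, among the highest levels on them. Other hepatocyte markers did move, as given with the cell types below.

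The control array of rat 3 is marked as an outlier in the labels, and the remnant of that rat is not. The marked array correlated least with the other controls (mean r across genes 0.354, against 0.361 to 0.435 for the unmarked controls). It was also the control least opposed to the remnants (-0.212, against -0.296 to -0.328). Both were taken after removal of each gene's mean over all 72 arrays of the series. The within-animal differences of rat 3 correlated with those of rats 1, 2 and 4 at 0.539, 0.72 and 0.575 across genes, which are not independent replicates, and the other rats correlated with each other at 0.708 to 0.745. Results are therefore given with all 4 rats and with the 3 unmarked ones. Rats 1 and 2 were scanned on 1 day, and rats 3 and 4 each on a day of its own, always with both arrays of a rat on the same day. The medians of the 8 arrays lay between 4.58 and 4.77. Without detection calls, a level below 4.65 (the median of all array medians) may be background, and changes that start or end there are uncertain in size.

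Partial hepatectomy is the classic model of liver regrowth. The remaining hepatocytes, which are normally quiescent, are primed by cytokines such as IL-6 acting through STAT3, pass the G1 restriction point under growth factors such as HGF and the ligands of the EGF receptor, copy their DNA and divide. In the rat, hepatocytes enter S phase in a fairly synchronous wave around the end of the first day. Genes of DNA synthesis are largely driven by E2F factors, released when cyclin-dependent kinases phosphorylate the retinoblastoma protein, and genes of mitosis by the DREAM and B-MYB/FOXM1 complexes at CHR elements.

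The remnants held far more mRNA of genes of DNA synthesis and mitosis than the controls, and less of many genes of mature hepatocyte metabolism. Of 14506 genes, 3764 (25.9%) were called with 4 rats, of which 2021 rose (13.9%) and 1743 fell (12%), by limma with the animal as a block at an adjusted p under 0.05. With the 3 unmarked rats 3614 were called (24.9%), of which 2047 rose (14.1%) and 1567 fell (10.8%). Both fits called 3186 genes (22%), of which 1809 rose (12.5%) and 1377 fell (9.49%). Rises did not outnumber falls in every setting, with 1926 and 2087 after quantile normalization and 1604 and 1705 without rat 4. The median response of all genes was 0.01. At a change of at least 2-fold, 388 genes rose (2.67%) and 1.7% of all genes fell. In rats 1 and 2 alone, which share a scan day, 2889 genes were called, with 1470 rising and 1419 falling. All 4 remnants lay above all 4 controls for 1754 genes (12.1%) and below them for 1520 (10.5%).

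**Figure D1:**
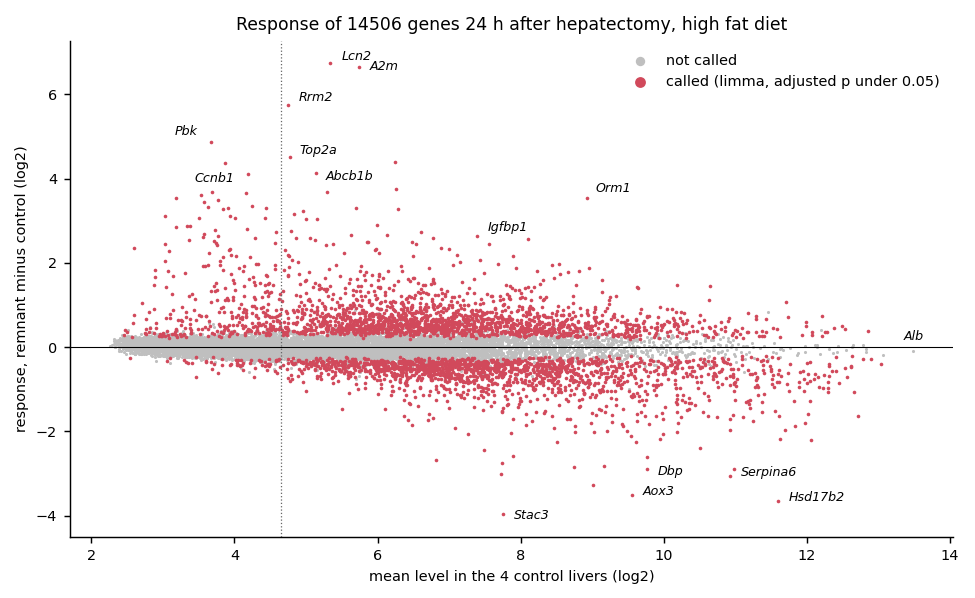
Response of each of 14506 genes (vertical axis, mean within-animal log2 difference, remnant minus control, 4 rats) against its mean log2 level in the 4 control livers (horizontal axis). Red points were called in limma, grey points were not, and the dotted line is the median of the array medians, 4.65. Lcn2, A2m and Rrm2 lead the rises, Stac3 and Hsd17b2 the falls, and Alb lies near 0.

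The named members of this response came from a rule given with the processing. Promoters of 5 of them, each holding a motif marked here, are shown as examples from the replication, mitosis and clock lists. They are the 250 bases before and the 50 after the annotated start, from RefSeq on rat build GRCr8, 5′ to 3′ on the gene's strand, and capitals mark the motif searched on both strands. Mcm6 and Mcm2 encode subunits of the helicase that unwinds DNA at replication forks, and capitals mark the E2F motif (TTTCGCGC, TTTGGCGC, TTTCCCGC or TTTGCCGC), which in both promoters is met on both strands by overlapping copies. The Mcm6 copies begin 139 and 135 bases before the start, those of Mcm2 14 and 10. Mcm6 lies at chr13:42404303-42404602 and Mcm2 at chr4:122918045-122918344, both on the minus strand.
Mcm6: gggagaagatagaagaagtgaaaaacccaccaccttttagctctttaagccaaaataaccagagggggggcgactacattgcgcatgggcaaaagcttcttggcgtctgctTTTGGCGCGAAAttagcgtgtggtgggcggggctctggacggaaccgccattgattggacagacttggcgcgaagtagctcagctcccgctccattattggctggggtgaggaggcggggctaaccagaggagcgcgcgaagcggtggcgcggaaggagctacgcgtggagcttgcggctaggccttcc
Mcm2: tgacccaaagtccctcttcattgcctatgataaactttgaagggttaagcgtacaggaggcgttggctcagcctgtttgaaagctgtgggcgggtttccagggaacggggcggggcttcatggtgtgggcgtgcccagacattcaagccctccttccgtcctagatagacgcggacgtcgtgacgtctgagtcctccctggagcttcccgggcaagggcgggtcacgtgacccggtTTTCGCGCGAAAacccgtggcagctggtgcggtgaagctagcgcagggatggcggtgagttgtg
Cdk1 encodes the kinase that starts mitosis, and Top2a the topoisomerase that untangles replicated chromosomes. Capitals mark the CHR (TTTGAA) and the CCAAT box (CCAAT) and, in Cdk1, also the E2F motif. In Cdk1 the CHR copies begin 72 and 16 bases before the start, the CCAAT boxes (read as ATTGG) 210, 81 and 49, and the E2F motif 133. In Top2a the CHR (read as TTCAAA) begins at 22 and the 4 CCAAT boxes lie farther from the start, the nearest at 57. Cdk1 lies at chr20:19265043-19265342 on the plus strand and Top2a at chr10:84473044-84473343 on the minus strand.
Cdk1: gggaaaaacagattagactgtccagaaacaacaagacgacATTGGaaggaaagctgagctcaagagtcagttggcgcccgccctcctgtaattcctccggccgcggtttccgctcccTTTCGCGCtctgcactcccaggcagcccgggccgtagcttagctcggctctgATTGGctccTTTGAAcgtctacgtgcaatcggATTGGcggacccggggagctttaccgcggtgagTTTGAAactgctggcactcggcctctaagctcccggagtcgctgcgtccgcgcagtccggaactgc
Top2a: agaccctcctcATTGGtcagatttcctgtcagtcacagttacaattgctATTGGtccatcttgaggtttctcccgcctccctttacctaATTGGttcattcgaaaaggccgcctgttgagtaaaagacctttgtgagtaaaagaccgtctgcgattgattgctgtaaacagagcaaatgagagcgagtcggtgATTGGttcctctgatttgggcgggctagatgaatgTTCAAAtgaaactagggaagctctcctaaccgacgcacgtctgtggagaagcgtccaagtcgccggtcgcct
Tef encodes a PAR bZIP factor that conveys the circadian rhythm to its target genes, and capitals mark the E-box (CACGTG), 198 bases before the start, at chr7:115206577-115206876 on the plus strand.
Tef: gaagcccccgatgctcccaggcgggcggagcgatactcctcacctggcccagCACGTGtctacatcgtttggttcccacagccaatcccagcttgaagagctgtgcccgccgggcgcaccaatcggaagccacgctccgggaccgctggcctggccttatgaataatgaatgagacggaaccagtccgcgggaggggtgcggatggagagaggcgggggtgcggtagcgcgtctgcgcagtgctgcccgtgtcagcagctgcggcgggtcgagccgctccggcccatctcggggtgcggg

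Replication genes rose almost as a whole. Of 34 measured members of the DNA replication list, 33 rose and 0 fell, with a median response of 1.44, and 31 rose with the 3 unmarked rats. The exception, named after its values were seen, was Orc1, a subunit of the origin recognition complex (0.33 ± 0.14, adjusted p = 0.0866), which was called without rat 1 (0.45, adjusted p = 0.0344). Mcm6 stood at 5.02, 4.99, 4.56 and 6.03 in the controls of rats 1 to 4 and at 7.42, 8.85, 8.55 and 7.97 in their remnants. All remnants lay above all controls, and the response was 3.05 ± 0.30 (SE, 4 rats, adjusted p = 6.13e-09 in limma), smaller in rats 1 and 4 (2.41 and 1.94) than in rats 2 and 3 (3.86 and 3.99). Pcna, the sliding clamp of DNA polymerase, went from 6.16, 6.50, 7.03 and 6.73 to 8.99, 9.88, 9.04 and 9.43, again without overlap (2.73 ± 0.24, adjusted p = 7.16e-10). Gmnn, which keeps origins from being licensed more than once per cycle, rose by 2.55 ± 0.18, Prim1, a subunit of primase, by 2.49 ± 0.19, Mcm7 by 2.15 ± 0.18, Mcm2 by 1.93 ± 0.21, and Fen1, the flap endonuclease of lagging strands, by 1.86 ± 0.16. The list median was 2.04 in rat 2 and 1.01 to 1.33 in the others.

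Genes that supply nucleotides rose beside them. Rrm2, the S-phase subunit of ribonucleotide reductase, was at 4.47, 4.63, 4.68 and 5.21 in the controls and at 10.24, 10.86, 10.51 and 10.41 in the remnants. The controls lay near the array medians and the remnants far above, and the response of 5.76 ± 0.18 (adjusted p = 4.27e-19) was the third largest rise among the genes named by size. Its partner subunit Rrm1 rose by 2.59 ± 0.15, Tyms, the thymidylate synthase, by 2.51 ± 0.22, Dut, which clears dUTP, by 1.87 ± 0.17, and Gart, of purine synthesis, by 1.26 ± 0.14. In all, 17 of 23 nucleotide synthesis genes rose and 0 fell, with a median of 0.62.

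Mitosis genes showed the highest median of the function lists, 2.77, and 44 of 45 measured members rose with 4 and with 3 rats. Cdc25b, a phosphatase that activates cyclin-dependent kinases, was the member that was not called (0.06, named after its values were seen). Top2a was at 4.63, 4.74, 4.88 and 4.85 in the controls and at 9.06, 9.37, 9.40 and 9.30 in the remnants (4.51 ± 0.14, adjusted p = 4.27e-19). Ccnb1, cyclin B1, the partner of CDK1, was at 4.36, 4.10, 4.28 and 4.03 and rose to 8.68, 7.97, 8.26 and 8.26 (4.10 ± 0.12, adjusted p = 2.11e-19). In both genes the 4 remnants lay far above the 4 controls, and every Ccnb1 control lay below the array medians. Cdk1 rose by 3.61 ± 0.13, Ect2, which places the cleavage furrow, by 3.68 ± 0.13, Spc25, of the kinetochore, by 3.65 ± 0.20, Plk1, a mitotic kinase, by 3.35 ± 0.12, and Bub1, of the spindle checkpoint, by 3.07 ± 0.10. Among genes outside the list, Pbk, a mitotic kinase, rose by 4.87 ± 0.19, Pclaf, a PCNA-binding factor, by 4.36 ± 0.25, and H1f5, a linker histone, by 3.75 ± 0.17. The pair medians of the mitosis list ran from 2.63 to 2.94.

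**Figure D2:**
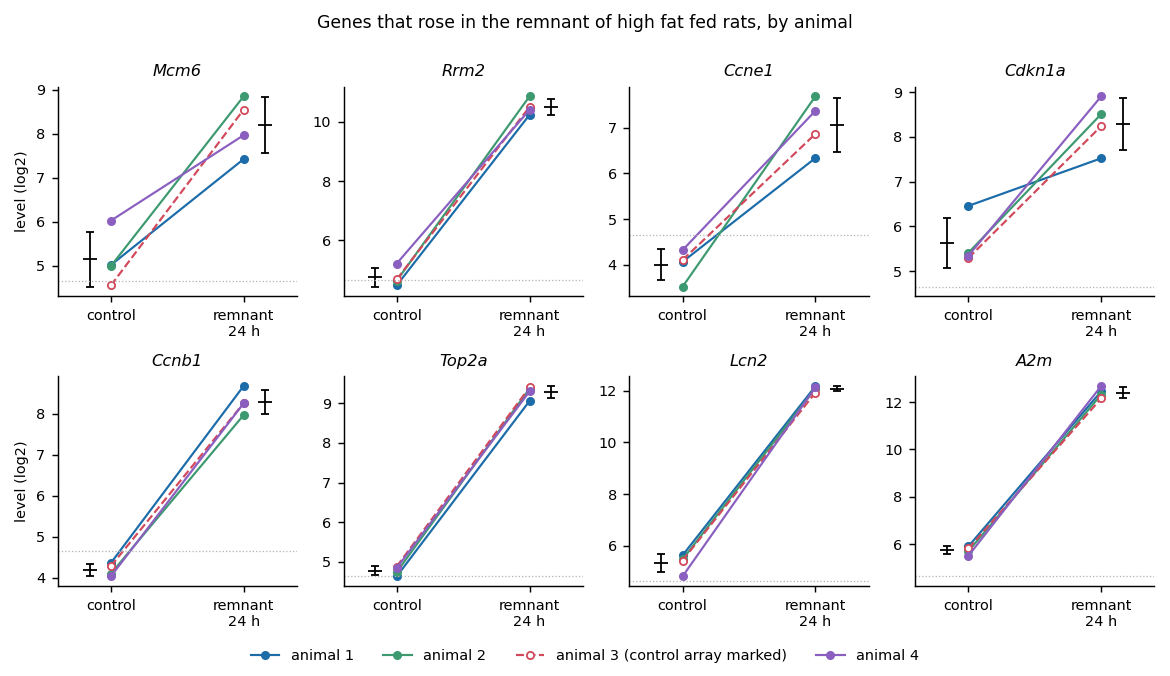
Log2 level of 8 genes that rose, in the control and the remnant of each of 4 rats, joined by animal, with mean ± SD of each group beside the points. Rat 3, whose control is marked, is drawn open and dashed, and the dotted line is the median of the array medians. In all 8 genes every remnant lies above every control, and Rrm2, Lcn2 and A2m move by over 5 log2 units.

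Regulators of G1 were less uniform. Of 23 G1 cyclins, E2F factors and CDK inhibitors, 12 rose and 2 fell (12 and 3 with the unmarked rats), with a median of 0.59. Ccne1, cyclin E1, which carries cells into S phase, went from 4.07, 3.52, 4.10 and 4.32 to 6.33, 7.68, 6.86 and 7.37 (3.06 ± 0.26, adjusted p = 2.98e-10), and Ccne2 rose by 2.29 ± 0.28. Inhibitors rose beside them. Cdkn1a, p21, went from 6.46, 5.41, 5.29 and 5.35 to 7.52, 8.51, 8.24 and 8.91 (2.67 ± 0.26, adjusted p = 6.54e-09), with the highest control and the lowest remnant in rat 1. Cdkn2c, p18, rose by 1.78 ± 0.14, and Rbl2, the p130 pocket protein of quiescent cells, fell by 0.91 ± 0.11 (log2 -0.91).

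Ccnd1, cyclin D1, the G1 cyclin that growth factors induce in regenerating liver, did not pass the test at 24 h. Its controls were at 9.34, 8.41, 8.42 and 9.31 and its remnants at 7.86, 8.98, 8.63 and 8.53, so the groups overlapped and the rats disagreed in direction (-0.37 ± 0.23, adjusted p = 0.274 in limma). Without rat 2 the response was -0.69 with an adjusted p of 0.0395. Myc, a growth-promoting transcription factor, moved by -0.10 ± 0.31 (adjusted p = 0.884).

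Genes that repair and repackage replicated DNA rose with replication, 14 of 18 with 0 falling and a median of 1.28. Asf1b, a histone chaperone, rose by 2.51 ± 0.18, Uhrf1, which carries DNA methylation onto new strands, by 2.16 ± 0.19, and Fancd2, of crosslink repair, by 1.92 ± 0.13. The p53 targets were mixed, with 6 of 19 rising and 3 falling, beside 13.9% and 12% of all genes, and a median of 0.12. Ccng1, cyclin G1, rose by 1.42 ± 0.18 and Phlda3, an inhibitor of AKT, by 1.16 ± 0.21. Fas, the death receptor, was at 5.48, 5.57, 6.21 and 5.36 in the controls and 6.76, 7.16, 6.16 and 6.78 in the remnants, a rise of 1.06 ± 0.21 (adjusted p = 0.000337) to which rat 3 contributed -0.05. Without rat 3 it was 1.43.

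The replication and mitosis lists differed in the motif that their promoters held more often, but not every promoter shown above follows this. Cdk1 also holds the E2F motif, and Mcm2 also holds the letters of the CHR (TTTGAA), left in lower case above. RefSeq promoters of 300 bases were at hand for 11968 of the 14506 genes. The E2F motif was in 3.08% of all of them, in 43.3% of the DNA replication promoters (13 of 30) and in 2.56% of the mitosis promoters (1 of 39, Cdk1 itself). The CHR was in 15.2% of all, in 69.2% of the mitosis promoters (27 of 39) and in 10.0% of the replication promoters (3 of 30). The CCAAT box was in 38.3% of all, 71.8% of the mitosis promoters and 63.3% of the replication promoters. Read from the motif, 31.4% of the 369 genes with the E2F motif rose and 8.13% fell, against 13.8% and 12.3% of the genes without it, and 15.2% of genes with the CHR rose against 14.1% of those without. These matches are letters in a fixed window and not shown to be bound. Rrm2 and A2m have no entry.

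Genes of protein synthesis and folding rose as well. Of 36 ribosome biogenesis genes 24 rose and 0 fell (median 0.50), led by Nhp2, Nop56 and Nop58, proteins of the particles that modify ribosomal RNA, at 2.07 ± 0.09, 1.62 ± 0.19 and 1.53 ± 0.23. Of 30 proteasome genes 27 rose and 0 fell, by a small median of 0.40, with Psmd14, the deubiquitinase of the lid, highest (1.40 ± 0.10). Of 16 heat shock genes and chaperones 14 rose and 0 fell (median 0.72), among them Hsp90aa1, the inducible HSP90 (1.43 ± 0.17), and the chaperonin subunits Cct2, Cct5 and Cct8 (0.88, 0.78 and 0.73). In the endoplasmic reticulum, where secreted proteins fold, 15 of 26 genes rose and 2 fell, with the chaperones Dnajb11 and Hyou1 up by 1.97 ± 0.13 and 1.81 ± 0.19. The cytoskeleton list had 23 of 32 members rising and 1 falling, with the tubulins Tubb6 and Tubb5 up by 3.69 ± 0.19 and 2.57 ± 0.11 and Stmn1, which takes microtubules apart, by 2.35 ± 0.12. Odc1 and Srm, which make putrescine and spermidine, rose by 1.18 ± 0.18 and 1.27 ± 0.18, while Sat1, which breaks polyamines down, fell by 1.03 (log2 -1.03 ± 0.19), and by 0.69 without rat 3.

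**Figure D3:**
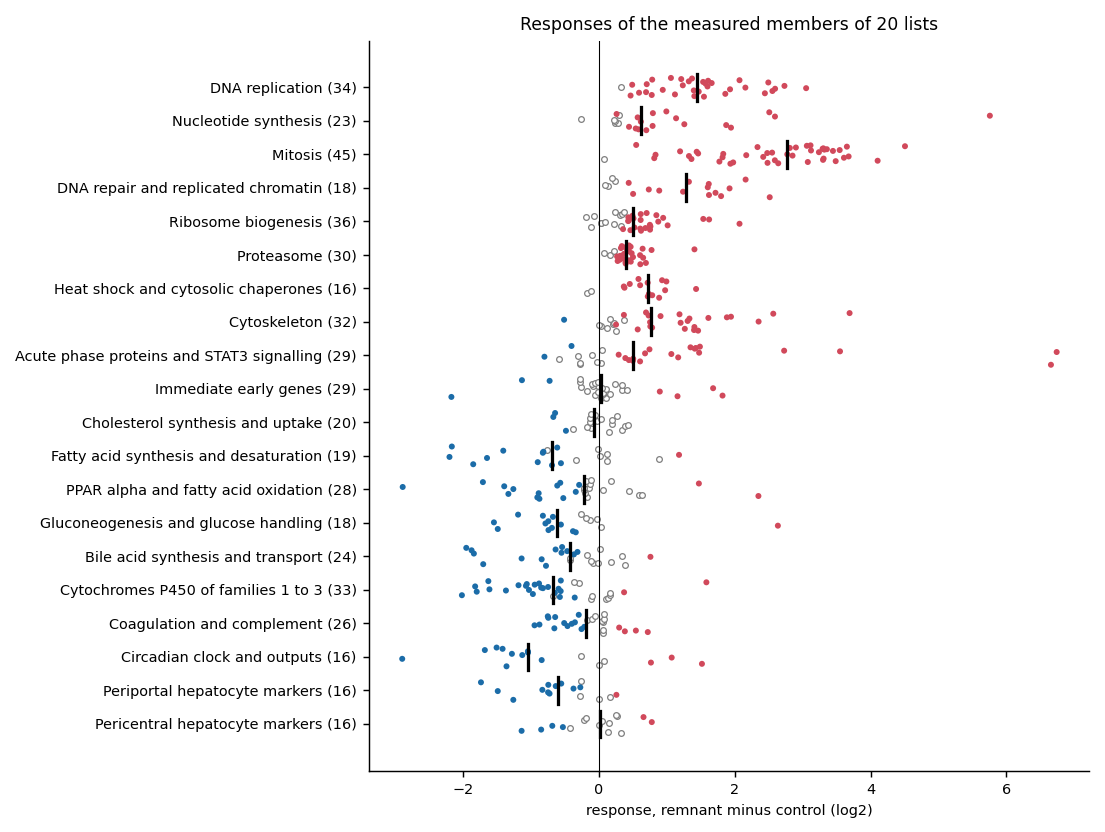
Log2 responses (remnant minus control, 4 rats) of the measured members of 20 gene lists, with the number of members in brackets. Red and blue points were called higher and lower in limma, open points were not called, and the black bar is the list's median. Replication and mitosis lie almost wholly to the right of 0, and the P450, gluconeogenesis, periportal and clock lists mostly to the left.

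Secreted acute phase proteins gave the largest rises of all named genes. A2m, alpha-2-macroglobulin, the major acute phase protein of the rat, stood at 5.92, 5.72, 5.83 and 5.52 in the controls and at 12.46, 12.31, 12.15 and 12.68 in the remnants (6.66 ± 0.28, adjusted p = 1.93e-16). Lcn2, lipocalin 2, which binds bacterial siderophores, was at 5.63, 5.48, 5.43 and 4.82 and then at 12.18, 12.09, 11.93 and 12.13 (6.74 ± 0.21, adjusted p = 4.27e-19). In both genes the remnants lay within narrow ranges and far above the controls, by 101-fold for A2m and 107-fold for Lcn2. Orm1, orosomucoid, rose by 3.55 ± 0.22, Wfdc21 by 4.39 ± 0.20, and Osmr, the oncostatin M receptor, by 2.73 ± 0.15. Hp, haptoglobin, already abundant at 12.38 to 12.56, rose by 0.50 ± 0.07 to 12.93 to 13.10. In all, 19 of 29 acute phase and STAT3 genes rose and 2 fell (median 0.50, and 0.19 in rat 3 alone). The STAT motif (TTCNNNGAA) was in 7.59% of all promoters and in 6 of 26 of this list (23.1%). Read from the motif, 13.3% of the genes with it rose against 14.4% of those without. Lcn2, Orm1 and Osmr did not hold it, and Hamp, a list member that did, was not called (-0.58, adjusted p = 0.305 in limma).

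Other cytokine-linked genes moved less as groups. Cxcl1, a chemokine, rose by 3.28 ± 0.28, with remnants at 10.25, 9.97, 8.26 and 9.76, the lowest in rat 3. Of 19 NF-kB and chemokine genes 6 rose and 1 fell, beside 13.9% and 12% of all genes. Of 22 interferon response genes 4 rose and 6 fell. Of 29 immediate early genes, known for brief induction soon after surgery, 4 rose and 3 fell, close to the shares of all genes (13.9% and 12%), with a median of 0.03. Fos was at 4.51 to 4.64 in the controls and 4.69 to 4.80 in the remnants, close to the array medians (0.16 ± 0.14, adjusted p = 0.496). Egr1 and Junb, both transcription factors, rose by 1.82 ± 0.35 and 1.68 ± 0.19, and the phosphatases of MAP kinases split, Dusp6 up by 1.16 ± 0.27 and Dusp1 down (log2 -2.18 ± 0.27). Dusp6 in rat 3 differed by 0.01 between its arrays.

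Against these rises stood a broad fall of mature hepatocyte functions. Hsd17b2, which inactivates oestradiol and testosterone, went from 11.30, 11.71, 11.34 and 12.04 in the controls to 7.65, 8.41, 7.76 and 7.97 in the remnants (log2 -3.65 ± 0.32, adjusted p = 7.35e-10). Stac3, an adaptor protein known from muscle, went from 8.17, 7.65, 7.71 and 7.49 to 4.09, 3.77, 3.74 and 3.57, below the array medians (log2 -3.96 ± 0.18, adjusted p = 7.01e-16). In both genes all remnants lay below all controls, by close to the same distance in each rat. Aox3, an aldehyde oxidase, fell by 3.50 ± 0.31 (log2 -3.50), Serpina6, the corticosteroid-binding globulin of plasma, by 3.06 ± 0.19 (log2 -3.06), and Sult1c2, a sulphotransferase, by 2.85 ± 0.23 (log2 -2.85).

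Genes of drug metabolism fell widely, many of them from high levels. The list of cytochromes P450 of families 1 to 3 also holds their reductase Por and the receptors Nr1i2, Nr1i3 and Ahr. Of its 33 measured members 22 fell and 2 rose, with a median of -0.69. Cyp2e1, which oxidises ethanol, went from 12.37, 12.58, 12.40 and 12.45 to 11.18, 11.83, 11.70 and 11.68 (log2 -0.85 ± 0.12, adjusted p = 3.48e-06). Cyp2c11 and Cyp3a2, the male-typical forms of rat liver, were at 12.22 and 12.30 in the controls and fell by 0.98 ± 0.14 and 1.07 ± 0.10 (log2 -0.98 and -1.07). Cyp2j3 and Cyp2c23, which make signalling epoxides from arachidonic acid, had responses of -1.83 ± 0.15 and -1.80 ± 0.09. Cyp2b1, the phenobarbital-inducible form, was not called (-0.69 ± 0.42, adjusted p = 0.277), although its 4 remnants all lay below its 4 controls. Of 27 conjugation enzymes 11 fell and 2 rose. The oxidative stress list was mixed, with Nqo1, a quinone reductase, up by 2.67 ± 0.17 and Gclm, of glutathione synthesis, down (log2 -1.82 ± 0.14).

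Several of the factors that set hepatocyte identity were lower too, with 8 of 18 falling and 0 rising. Nr1i3, the xenobiotic receptor CAR, was at 7.84, 8.92, 7.95 and 9.03 and then at 6.07, 7.06, 6.80 and 7.29 (log2 -1.63 ± 0.24, adjusted p = 6.77e-06). Cebpa, the bZIP factor that restrains hepatocyte division, fell by 1.28 ± 0.17 (log2 -1.28), and Thrb, the thyroid hormone receptor, by 1.27 ± 0.15 (log2 -1.27). Periportal markers fell for 11 of 16 and rose for 1, with a median of -0.60, and pericentral markers fell for 4 of 16 and rose for 2, with a median of 0.01. Summed levels, the log2 of the sum of unlogged values, ran from 14.87 to 15.14 in the controls and 14.45 to 14.76 in the remnants for periportal markers. For pericentral markers they ran from 13.75 to 14.11 in the controls and 13.4 to 13.79 in the remnants. The difference between both zone lists was not tested.

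Genes of bile acid handling fell, transporters among them. Of 24 genes 13 fell and 1 rose, with a median of -0.43. Slc10a1, the sodium-dependent uptake carrier NTCP, went from 11.72, 11.85, 11.56 and 12.20 to 9.73, 10.07, 10.16 and 9.86 (log2 -1.88 ± 0.12, adjusted p = 1.53e-12). Slco1a4, another uptake carrier, fell by 1.96 ± 0.16 (log2 -1.96), Abcc2, the canalicular pump MRP2, by 1.71 ± 0.15 (log2 -1.71), and Cyp27a1, which starts the alternative pathway of synthesis, by 1.14 ± 0.14 (log2 -1.14). The main synthetic enzymes were not called. Cyp7a1, the rate-limiting enzyme, was at 10.98, 10.95, 9.21 and 10.85 in the controls and 10.06, 9.17, 10.07 and 10.95 in the remnants (log2 -0.44 ± 0.45, adjusted p = 0.574), and Cyp8b1, which makes cholic acid, moved by 0.34 ± 0.26. The cholesterol exporters Abcg5 and Abcg8 fell by 2.25 ± 0.26 and 1.46 ± 0.30 (log2 -2.25 and -1.46). In their list of sterol export, lipoprotein and LXR-related genes 6 of 14 fell and 0 rose.

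Most genes of fatty acid synthesis fell, while Fasn and Scd did not pass the test. Of 19 fatty acid synthesis genes 11 fell and 1 rose, with a median of -0.69. Fads2, the delta-6 desaturase, went from 12.35, 11.90, 11.75 and 12.25 to 9.33, 9.98, 10.13 and 10.00 (log2 -2.20 ± 0.19, adjusted p = 6.07e-10), and Fads1, the delta-5 desaturase, fell by 1.65 ± 0.17 (log2 -1.65). Thrsp, Acacb and Pklr, genes that carbohydrate induces, fell by 2.17 ± 0.21, 1.85 ± 0.19 and 1.41 ± 0.17 (log2 -2.17, -1.85 and -1.41). Fasn, the fatty acid synthase, stayed within its spread, at 8.22, 7.28, 6.50 and 8.28 before and 7.82, 7.64, 7.43 and 7.42 after (0.01 ± 0.26, adjusted p = 0.989), and Scd was low throughout (5.27 to 6.24 and 5.23 to 5.77). Of 20 cholesterol synthesis genes 3 fell and 0 rose, beside 12% and 13.9% of all genes, with a median of -0.08. The 3 that fell were Sc5d and Tm7sf2, enzymes of late sterol synthesis (log2 -0.67 ± 0.10 and -0.65 ± 0.14), and Cyp51, the lanosterol demethylase (log2 -0.49 ± 0.18, adjusted p = 0.0456). Cyp51 was not called without rat 3 (-0.53, adjusted p = 0.0706), nor without rat 1 or rat 4 (-0.37 and -0.38), and Tm7sf2 was not called in rats 1 and 2 alone (-0.34, adjusted p = 0.239).

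Genes of fat oxidation and glucose output also fell. Ehhadh, the bifunctional enzyme of peroxisomal oxidation, went from 10.98, 11.01, 10.63 and 11.33 to 7.98, 7.81, 8.23 and 8.37 (log2 -2.89 ± 0.25, adjusted p = 3.82e-10). Bdh1, of ketone body synthesis, and Cpt1a, which admits fatty acids to mitochondria, fell by 1.34 ± 0.12 and 0.89 ± 0.19 (log2 -1.34 and -0.89). In all, 13 of 28 PPAR alpha and oxidation genes fell and 2 rose. Of 18 genes of gluconeogenesis and glucose handling 12 fell and 1 rose, with a median of -0.62. Pc, pyruvate carboxylase, fell by 1.55 ± 0.12 (log2 -1.55), Slc37a4, the glucose-6-phosphate carrier, by 1.19 ± 0.12 (log2 -1.19), and Pck1, the cytosolic PEP carboxykinase, by 0.75 ± 0.17 (log2 -0.75), to which rat 3 contributed -0.08. Without rat 2 Pck1 was at -0.47 with an adjusted p of 0.0507. Igfbp1, a binding protein of insulin-like growth factors that is induced early in regeneration, was the member that rose, from 7.05, 7.31, 8.08 and 7.11 to 10.03, 10.09, 9.50 and 10.47 (2.63 ± 0.51, adjusted p = 0.000211). Igf1 and Igfals, which form the circulating growth factor complex, fell by 0.64 ± 0.07 and 1.58 ± 0.12 (log2 -0.64 and -1.58). Of 26 coagulation and complement genes 13 fell and 4 rose, with factors F11 and F12 down (log2 -0.95 ± 0.10 and -0.88 ± 0.08) and C4bpa, a complement inhibitor, up (0.72 ± 0.08).

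Clock genes differed between control and remnant as a group. Of 16 measured, 10 fell and 3 rose, with 4 and with 3 rats, and the median was -1.05. Dbp, an output factor driven by the CLOCK:BMAL1 activator, went from 9.52, 10.12, 9.47 and 9.95 to 6.66, 7.10, 7.40 and 6.29 (log2 -2.90 ± 0.27, adjusted p = 2.96e-09). Bmal1 itself went from 4.18, 3.87, 4.40 and 3.50, below the array medians, to 5.68, 4.72, 5.46 and 6.16 (1.51 ± 0.23, adjusted p = 8.68e-06). Per3, of the repressor arm, fell by 1.68 ± 0.19 (log2 -1.68), Tef by 1.42 ± 0.15 (log2 -1.42), and Nr1d2 and Nr1d1, the REV-ERB repressors, by 1.28 ± 0.15 and 1.13 ± 0.27 (log2 -1.28 and -1.13). The E-box was in 7.87% of all promoters and in 3 of 15 of these (20.0%), those of Tef, Bhlhe40 and Bhlhe41. Tef and Bhlhe40 fell, but Bhlhe41 was not called (-0.005, adjusted p = 0.988 in limma). Dbp, Per3, Nr1d2, Nr1d1, Per1 and Per2 fell and did not hold it. Read from the motif, 17.5% of the genes with the E-box rose and 13.9% fell, beside 13.9% and 12% of all genes. Control and remnant were taken 24 h apart by the labels, nominally at the same hour of the day. The hour of each sampling is not given, so a departure from that hour was not tested. Without sham animals, the operation itself and the loss of liver tissue cannot be told apart in these genes.

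In rat 3 some clock genes and some others moved unlike those of the other rats, while Dbp, Per3 and Tef were lower in the remnant of all 4. Per1 was at 6.51, 6.91, 5.01 and 6.45 in the controls and 4.90, 4.68, 5.49 and 5.61 in the remnants, so that it differed by 0.48 in rat 3 and by -0.84 to -2.23 in the others (log2 -1.05 ± 0.27, adjusted p = 0.00351, and -1.56 without rat 3). Without rat 2 Per1 was not called (-0.65, adjusted p = 0.0938). Per2 differed by -0.09 in rat 3 and by -1.27 to -1.44 in the others. Zfp354a, a zinc finger factor, was at 8.39, 8.84, 5.54 and 8.20 and then at 4.15, 4.56, 5.60 and 5.62, with no difference in rat 3 (0.06), a response of -2.76 ± 0.48 (adjusted p = 5.41e-05) with 4 rats and -3.70 with 3. Inmt, a methyltransferase, had a low control in the same rat (5.54, against 6.84 to 7.57). Pdk4, the kinase that shuts pyruvate out of oxidation, went the other way, with controls at 6.39, 6.28, 8.07 and 5.92 and remnants at 8.11, 8.39, 7.60 and 8.45 (1.47 ± 0.35, adjusted p = 0.00167, and 2.12 without rat 3). The clock list median was -0.32 in rat 3 and -0.78 to -1.18 in the others.

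**Figure D4:**
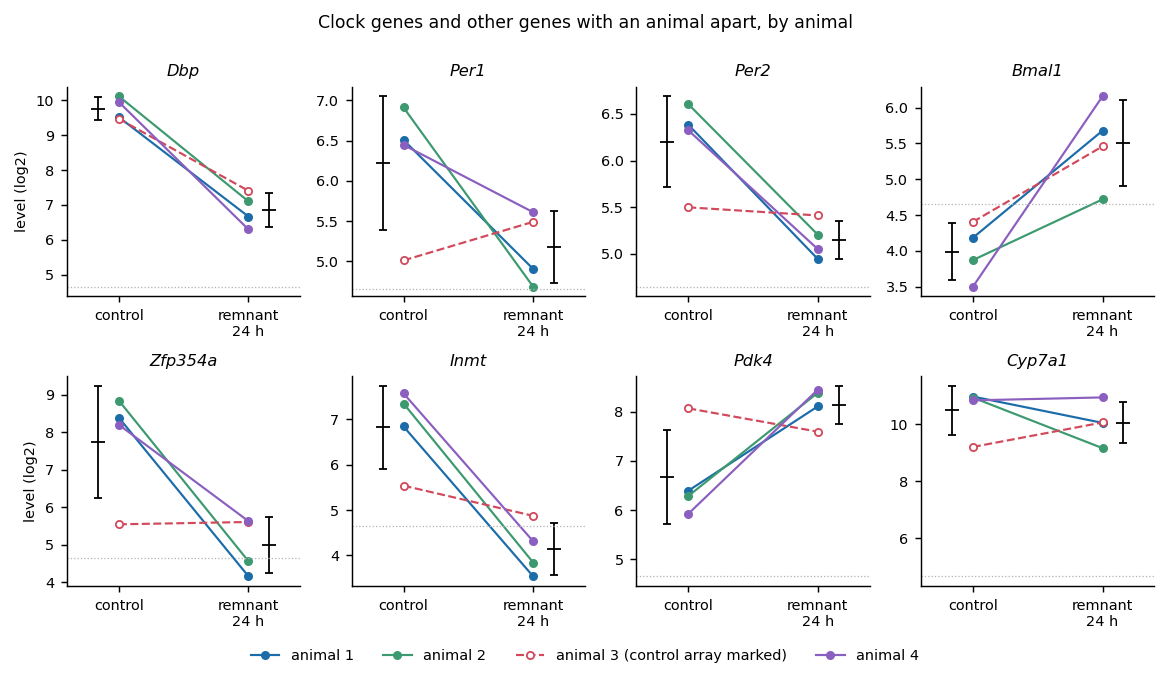
Log2 level of 4 clock genes and 4 other genes in the control and the remnant of each of 4 rats, joined by animal, with mean ± SD of each group beside the points. Rat 3, whose control is marked, is drawn open and dashed, and the dotted line is the median of the array medians. The control of rat 3 is the lowest for Per1, Per2, Zfp354a, Inmt and Cyp7a1 and the highest for Pdk4.

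Stellate cell and fibroblast markers moved in both directions, and most lists of other cell types had few or no called members. In such bulk tissue, fewer cells of a type and less RNA per cell cannot be told apart. Of 16 hepatocyte markers 7 fell and 3 rose, beside 12% and 13.9% of all genes, with a median of -0.145. The summed level of these 16 was 16.6 to 16.73 in the controls and 16.5 to 16.63 in the remnants. Of 19 macrophage markers 5 rose and 2 fell, 7 called in all beside 25.9% of all genes, and the 2 directions met in Kupffer cell genes, Marco, a scavenger receptor, up by 1.60 ± 0.13 and Clec4f, a lectin, down (log2 -0.55 ± 0.11). Their summed level, the log2 of the sum of unlogged values, was 11.42 to 12.02 in the controls and 11.71 to 11.96 in the remnants. Of 12 markers of sinusoidal endothelium 2 fell and 0 rose, beside 12% and 13.9% of all genes. The 2 that fell were Kdr, the VEGF receptor, and Bmp2, a signal to hepatocytes that raises hepcidin (log2 -1.22 ± 0.19 and -0.55 ± 0.16). Bmp2 was not called without rat 3 or without rat 1 (-0.36 and -0.47, adjusted p = 0.145 and 0.0767). Of 16 stellate cell and fibroblast markers 10 were called, 6 higher and 4 lower, and 4 and 4 with the unmarked rats. The rises, named after their values were seen apart from Acta2, included Tagln and Acta2, of the contractile apparatus (0.83 ± 0.24 and 0.56 ± 0.16), and Pdgfrb, a receptor of platelet-derived growth factor (0.66 ± 0.13), but Acta2 was not called without rat 3 (0.45, adjusted p = 0.0746), nor Tagln without rat 1 or rat 2 (0.76 each, adjusted p = 0.0564 and 0.0593). The falls included Lrat, which stores vitamin A as ester (log2 -1.08 ± 0.18, named after its value was seen), Reln, a secreted matrix protein (-1.04 ± 0.11), and the collagen gene Col3a1 (-0.75 ± 0.12). The summed level of the 16 stellate cell and fibroblast markers was 10.46 to 10.57 in the controls and 10.26 to 10.41 in the remnants. Timp1, a protease inhibitor from the matrix list, rose by 2.23 ± 0.23. Of 13 neutrophil markers 1 rose (S100a8, from 2.48 to 2.88 up to 2.92 to 4.33, all below the array medians, and not called without rat 1 at 0.39 and an adjusted p of 0.106), of 18 T and NK cell markers 1 fell, and 0 of the 9 bile duct, 5 B cell and 5 platelet markers were called in limma, with 0, 1 and 0 of them at an unadjusted p under 0.05.

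Of 7 red blood cell markers 2 fell, 0 rose and 5 were not called, with a median of -0.24 and a highest response of 0.31. Hbb, beta globin, was at 11.02, 10.56, 10.55 and 10.38 in the controls and 8.75, 9.36, 8.67 and 9.19 in the remnants (log2 -1.63 ± 0.35, adjusted p = 0.000604). Alas2, the haem synthesis enzyme of red cell precursors, fell by 1.10 ± 0.37 (log2 -1.10, adjusted p = 0.0252) and was not called without rat 1 or rat 4 (-0.62 and -1.15). The summed level of the 7 red cell markers, in which the most abundant weigh most, was 10.52 to 11.14 in the controls and 9.05 to 9.60 in the remnants. Its part in the other results was not tested. Markers of exocrine pancreas, muscle, fat and mesothelium, tissues that could be cut along, summed to 8.26 to 8.33, 8.11 to 8.25, 7.53 to 7.72 and 5.65 to 5.87 in the controls and to 8.05 to 8.30, 8.08 to 8.40, 7.72 to 7.87 and 5.73 to 6.11 in the remnants.

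Cell cycle genes responded more at 24 h than at 6 h on the same diet, and 3 acute phase genes responded less. The response at 24 h differed from that at 6 h for 1115 genes (7.69%), 681 higher at 24 h (4.69%) and 434 lower (2.99%), by limma on different animals. Of 45 mitosis genes 44 were higher at 24 h and of 34 replication genes 27, and their medians at 6 h were -0.04 and 0.00. Ccnb1 remnants at 6 h, at 3.61 and 3.65, lay beside their controls at 3.51 and 3.83, and the difference between the responses was 4.14 ± 0.21 (adjusted p = 2e-13). Ribosome biogenesis ran the other way, with 11 of 36 genes lower at 24 h than at 6 h, 1 higher, and a median of 1.23 at 6 h against 0.50. Of 29 acute phase genes 3 were lower and 0 higher, beside 2.99% and 4.69% of all genes. Lcn2 had a response of 5.91 and A2m of 5.83 at 6 h. A2m was higher at 24 h by 0.82 ± 0.48, which was not called. With 2 rats at 6 h, an uncalled difference does not show equal responses. Dbp and Stac3 had responses of -3.03 and -3.65 at 6 h, and neither difference was called (adjusted p = 0.937 and 0.693). Cpt1a was lower at 24 h than at 6 h by 1.17 ± 0.32 (log2 -1.17, adjusted p = 0.0208). With 2 rats at 6 h, leaving out 1 of them brought the 1115 genes to 410 or 614.

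Set beside the other diets at the same hour, the response was close to that of the animals titled CHO and larger in cycle genes than that of the ethanol-fed animals. Across 14506 genes, which are not independent replicates, the mean responses correlated at r = 0.887 with CHO and 0.695 with EtOH. In limma 0 genes (0%) differed in response from CHO at an adjusted p under 0.05, with 756 at an unadjusted p under 0.05 (5.21%). With 2 CHO rats a small difference would not be detectable, and larger ones could go uncalled. Abcg8 differed by -0.93 ± 0.52 and Abcb1b by 0.76 ± 0.49, and neither was called (adjusted p = 0.96 for both). Leaving out 1 rat of either diet gave 0 to 13 genes, the 13 without CHO rat 4. The Rrm2 response differed from CHO by -0.30 ± 0.31 and that of Top2a by -0.71 ± 0.24 (adjusted p = 0.977 and 0.945). Against EtOH 617 genes differed (4.25%), 522 higher on the high fat diet (3.6%) and 95 lower (0.655%), and 725 with the unmarked rats (5%), 530 of them the same genes (3.65%). Without ethanol-fed rat 1 or rat 3 the count was 349. After quantile normalization the split was 453 higher and 201 lower.

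Among those 617 were 43 of 45 mitosis genes and 16 of 34 replication genes, all with the higher response on the high fat diet. Ccnb1 remnants of ethanol-fed rats lay between 4.90 and 5.33, against 7.97 to 8.68 here, from controls of 4.28 to 4.95 and 4.03 to 4.36 (difference of responses 3.49 ± 0.18, adjusted p = 6.21e-13). Rrm2 differed by 3.30 ± 0.28 and Top2a by 2.90 ± 0.22, while Mcm6 did not pass the test (1.41 ± 0.46, adjusted p = 0.0821). Lcn2 and A2m differed by 0.46 ± 0.32 and 0.16 ± 0.43 and were not called. Of 20 cholesterol synthesis genes 16 had a higher response here, where their median was -0.08 against -1.29 in ethanol-fed animals, and of 19 fatty acid synthesis genes 8 (-0.69 against -1.75).

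Some of these differences lay in the controls. Stac3 was at 3.57 to 4.09 in the remnants here and at 3.61 to 3.90 in those of ethanol-fed rats, and its controls were at 7.49 to 8.17 here and 4.01 to 4.67 there (difference of responses -3.29 ± 0.27, adjusted p = 3.11e-09). Dbp remnants were likewise at 6.29 to 7.40 and 6.29 to 6.91, and its controls at 9.47 to 10.12 and 6.43 to 8.71 (-2.35 ± 0.42, adjusted p = 0.000737). Fasn remnants were at 7.42 to 7.82 and 6.70 to 7.62, from controls at 6.50 to 8.28 and 8.35 to 10.04 (2.22 ± 0.39, adjusted p = 0.000737). Cdkn1a remnants were at 7.52 to 8.91 and 7.60 to 7.85, from controls at 5.29 to 6.46 and 6.69 to 7.71 (2.10 ± 0.40, adjusted p = 0.00166). In these 4 genes the controls of both diets did not overlap and the remnants did, whereas the remnants of both diets stood apart for Ccnb1, Rrm2 and Top2a.

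**Figure D5:**
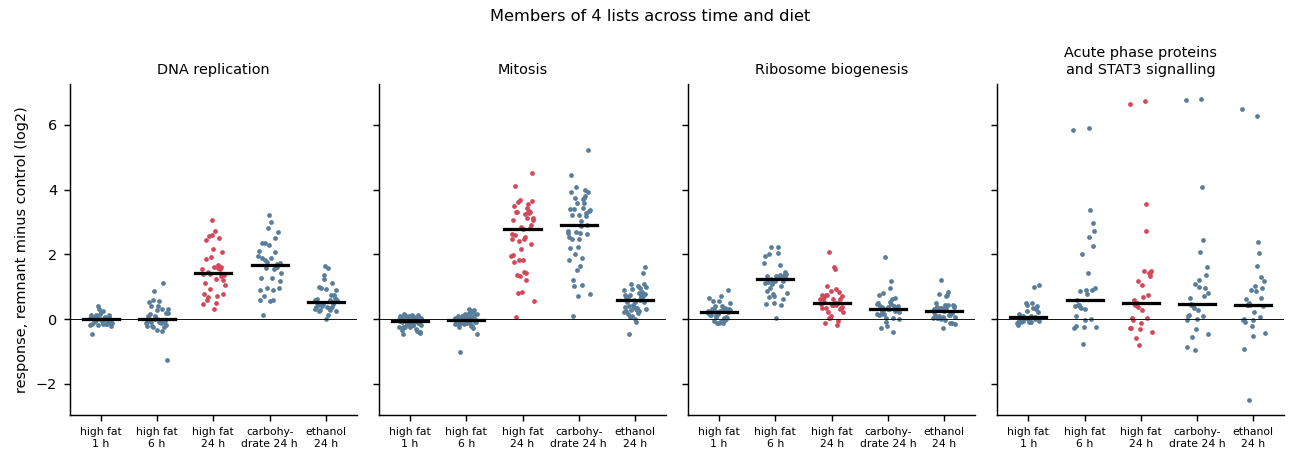
Mean log2 responses (remnant minus control) of each measured member of 4 gene lists at 1, 6 and 24 h on the high fat diet and at 24 h on the carbohydrate and ethanol diets, with the list median as a black bar; each column rests on 2 to 4 rats and the columns hold different animals. The mitosis medians are 2.77 on the high fat diet at 24 h, 2.90 on carbohydrate and 0.59 on ethanol, and the ribosome biogenesis median is highest at 6 h.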

How the data were processed

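The deposited values are log2 expression values per probe set. The submitters' processing notes name RMA and Affymetrix Expression Console without versions, and per the file headers the authors then corrected for batch with a mixed-effects ANOVA. The corrected values were checked to equal the uncorrected table plus a constant per probe set and scan day, within 9.83e-05, so within-animal differences are the same in both (within 0.00014). Of 29214 probe sets, 15310 map to 1 gene symbol in the platform annotation, 323 to several and 13581 are not listed. Each of 14506 genes was represented by its brightest probe set on average, since 527 had several, and dim genes were kept.

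limma 3.58.1 under R 4.3.3, with data.table version 1.17.8 for reading, fitted the responses with the animal as a fixed block on 56 arrays of 28 rats, the 27 rats without an outlier mark and rat 3 of this experiment, with 19 residual degrees of freedom. The other diets and times share the estimate of spread with it. The fit with 3 rats left rat 3 out (54 arrays, 18 degrees of freedom). Differences between responses were contrasts in the same fit. A gene was called where its p, adjusted by Benjamini and Hochberg's method across the 14506 genes, was under 0.05. The number of arrays limits the precision. On simulated data 97% of 100 genes changed by log2 1 and 100% of 100 changed by log2 2 were recovered, and 12 of the genes left unchanged were called. The simulated noise was independent for each gene and array around the mean of each diet and time, with no animal effect and no aberrant array. Recovery and false calls may be worse in the real data. Motifs were searched and figures drawn in Python 3.11.15 with pandas 2.3.3, numpy 2.4.6 and matplotlib 3.10.9.

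The animal labels give the pairing. After removal of the group means, both arrays of a rat correlated at -0.06, 0.16, -0.33 and -0.10 in rats 1 to 4.

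The comparison and the gene lists were chosen with earlier results of these data known. Genes were named from the 15 largest rises and 15 largest falls among genes called with 4 and with 3 rats, changed the same way in the 3 unmarked rats and with the higher group above the array medians, the 5 smallest p of each function or zone list, up to 3 of each cell type list, 40 measured genes of a fixed list, and the 6 largest of each difference between responses. Alternatives tried were other scalings, other sets of arrays, no block, array weights, other choices of probe sets and the authors' other 2 tables.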

Additional observations from a re-analysis of the deposited data

Results flagged for a closer look

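In a group of 4 rats, 10 of 156 genes described and 4 of 54 lists had 1 rat far from the other 3 by a gap test that chance passes in about 1 in 20 groups. Rat 3, whose control array is marked, was the rat apart for Sat1 (within-animal log2 difference -2.06), Hp (0.378), Wfdc21 (3.55), Nr1i3 (-1.15), Per2 (-0.0872) and Inmt (-0.665), and for the median of the NRF2, heme oxygenase and metallothionein list (-0.165). Rat 4 was apart for Lcn2 (7.31) and Orm1 (4.82), where its control was the lowest of the 4. Rat 1 was apart for Cyp2e1 (-1.19) and Slc37a4 (-0.867) and for the medians of the p53 targets (-0.0266), the sterol export and LXR targets (-0.205) and the extracellular matrix (-0.219).

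Responses that differed from those of ethanol-fed rats at 24 h, by a limma contrast of both responses at an adjusted p under 0.05, were higher for Rrm2 (log2 3.30), Pbk (3.15), Top2a (2.90), Ccnb1 (3.49), Ccna2, cyclin A2 (2.95), Cdkn1a (2.10), Fasn (2.22), Bmal1 (1.43) and Cyp2c11 (0.892). They were lower for Stac3 (-3.29), Abcg5 (-2.49), Dbp (-2.35) and Nr1i3 (-1.64). The Abcg5 response itself was 0.25 in ethanol-fed rats, with controls at 5.39 to 6.58 and remnants at 5.60 to 6.98, against 7.63 to 9.74 and 5.94 to 6.57 on the high fat diet. Bmal1 controls were at 5.09 to 6.81 in ethanol-fed and 3.50 to 4.40 in high fat fed rats, and the remnants at 5.89 to 6.63 and 4.72 to 6.16.

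Against the response at 6 h on the high fat diet, the response at 24 h was higher for Rrm2 (4.26), Pbk (5.01), Top2a (4.52), Pclaf (4.54), Ccnb1 (4.14), H1f5 (3.84), Mcm6 (3.02) and Pcna (2.16), and lower for Abcg5 (-1.47), Cyp2e1 (-0.680), Cyp3a2 (-0.556) and Cpt1a (-1.17). Among probe sets that the annotation gives no single gene symbol, 1672 of 13904 were called in the 24 h response (12%), 967 higher and 705 lower, against 18.9% of all 29214 probe sets.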

How the results depend on the processing

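Of 156 genes described, 145 were called and 134 of these were called in every one of 14 other settings in which they were tested. There were 0 changes of direction where the main or the other fit called the gene. Changes of sign in genes that neither fit called were not counted. The 24 h response counted 3162 to 3614 genes with 1 rat left out and 2571 to 4013 under the other settings on the table of genes, against 3764, and 5533 when every probe set was tested. At 1.5-fold it counted 1694 to 1964 with 1 rat left out, against 1745. Without the replicate block, in which the pairing was ignored, 3628 genes were called. Among the genes described, the block changed the calls of Cyp51 and of Alas2 alone, which were lost without it (adjusted p = 0.184 and 0.104). Cyp2b1 passed the test (adjusted p = 0.00786) in a fit of the 8 arrays alone. The difference from ethanol-fed rats counted 349 to 830 genes with 1 rat left out, against 617, that from CHO 0 to 13, and that from 6 h 410 to 1073, against 1115. With all 72 arrays, marked ones included, the latter was 2161 (1306 higher and 855 lower). In the authors' table without outliers 2 of 63 columns matched another array best, and their animals were left out there. Depth has no counterpart on arrays, and changes to or from levels under 4.65 are uncertain in size.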

Other observations

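Further genes of transport and amino acid use moved in the same remnants. Of 23 solute carriers 5 rose and 5 fell, beside 13.9% and 12% of all genes. The risers included Slc1a4 and Slc1a5, carriers of neutral amino acids (1.64 ± 0.30 and 0.74 ± 0.12, SE, 4 rats), and Slc16a1, a lactate carrier (0.93 ± 0.12). Of 28 genes of amino acid and urea metabolism 11 fell and 5 rose. Enzymes of the methionine cycle were among those that fell, Mat1a, which makes S-adenosylmethionine, Gnmt, which uses it up, and Ahcy, which clears the product (log2 -0.82 ± 0.11, -1.18 ± 0.13 and -0.95 ± 0.08), as did Ftcd, of histidine breakdown (-1.05 ± 0.10). These calls are from limma at an adjusted p under 0.05.

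In iron handling, 4 of 17 genes rose and 4 fell, beside 13.9% and 12% of all genes. Tfrc, the transferrin receptor, rose by 1.48 ± 0.27 and was not called in rats 1 and 2 alone (0.86, adjusted p = 0.0829), while Slc40a1, the iron exporter ferroportin, and Tmprss6, a protease that restrains hepcidin, fell (log2 -0.62 ± 0.09 and -0.77 ± 0.09). Among mitogens and their receptors 2 of 24 rose and 8 fell, beside the same shares of all genes. Egf and Vegfa were among those that fell (log2 -0.77 ± 0.12 and -0.98 ± 0.17). Lipc, hepatic lipase, fell by 1.13 ± 0.07 (log2 -1.13), Apoa2, of high density lipoprotein, by 1.30 ± 0.15 (log2 -1.30), Prlr, the prolactin receptor, by 1.04 ± 0.20 (log2 -1.04), and Cat, catalase, by 1.29 ± 0.10 (log2 -1.29). Abcb1b, a multidrug export pump, was at 4.84 to 5.63 in the controls and 8.93 to 9.63 in the remnants (4.13 ± 0.28).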
